A study of Mus musculus with 6 samples.

Results

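The genes described are 9 regulators of coagulation and fibrinolysis, Plau, Plaur, Plat, F3, Thbd, Thbs1, Vwf, Procr and Tfpi, found by symbol among the 32285 genes of a single-cell RNA-seq matrix of mouse brain after stroke. All 9 were measured. The matrix holds UMI counts (unique molecular identifiers, each marking 1 captured RNA molecule) of live brain cells depleted of mature neurons, taken after the middle cerebral artery was permanently occluded (pMCAO). The 6 groups of the study are the contralateral (contra) and ipsilateral (ipsi) cortex at 1, 12 and 24 h after pMCAO, with 1 library per group. All groups came from RGS5 GFP/+ mice of 8 to 12 weeks on C57bl/6, in which GFP replaces 1 Rgs5 allele, so that every sample shares this loss of 1 allele, and no sham or wild-type library was analysed here. The contralateral tissue comes from mice that also had a stroke. The paper counts fewer mice for single-cell sequencing than the 6 libraries, so some libraries share a mouse and the 6 are not independent animals. Barcodes carry a library number from 1 to 6, but no source used here ties a number to a hemisphere or a time. The libraries are therefore described by number, without a condition, and no difference between conditions was tested.

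Blood clotting starts when tissue factor, the product of F3, meets plasma factor VII. Tissue factor pathway inhibitor (Tfpi), thrombomodulin (Thbd) and the endothelial protein C receptor (Procr) hold this cascade back on vessel walls, and von Willebrand factor (Vwf) ties platelets to a damaged wall. Clots are dissolved by plasmin, which tissue plasminogen activator (Plat) and urokinase (Plau, with its receptor Plaur) release from plasminogen, and Plat is also the thrombolytic drug given in ischemic stroke.

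After cell calling, 17354 cells with a median of 5338.5 UMIs were kept and fell into 29 clusters, made without the members and 62 other genes of the pathway among the variable genes. Libraries 1 to 6 held between 1221 and 5873 cells, with median depths from 5053 to 5660.5 UMIs, and 26 barcodes were seen in more than 1 library. In all, 16765 cells were named as 13 classes from marker genes, and 589 cells in 4 clusters stayed unnamed. The labelled classes carried their defining markers, such as Cldn5 at 3727 CPM (UMIs scaled to a total of 1000000) in endothelial-like, Rgs5 at 3195 CPM in pericyte-like, Slc1a2 at 7355 CPM in astrocyte-like and P2ry12 at 1889 CPM in microglia-like cells. Clusters 5, 9, 11, 18, 21 and 24 together made up 29.0% and 47.2% of the cells of libraries 4 and 6, against 0.246% to 1.63% elsewhere. These clusters were chosen with earlier results of these data known, so the contrast is a description only. Cluster 8 in turn held 304 and 357 cells of libraries 1 and 2, and 6, 7, 12 and 11 cells of libraries 3 to 6.

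Start-site sequence from RefSeq (GRCm38.p6) was at hand for 4 of the 9 members, and is shown for the 3 whose windows hold the letters of the AP-1 site, which were chosen after their values were seen and lead in different cell classes. Each run ends just before the annotated transcript, reads 5′ to 3′ on the plus strand, and has in capitals the letters TGANTCA (AP-1, a factor of early and stress responses) and GGGCGG (an SP1 site), each searched on both strands. F3 is from chr3:121723287-121723536, Plaur from chr7:24462233-24462482 and Procr from chr2:155750967-155751116.
F3: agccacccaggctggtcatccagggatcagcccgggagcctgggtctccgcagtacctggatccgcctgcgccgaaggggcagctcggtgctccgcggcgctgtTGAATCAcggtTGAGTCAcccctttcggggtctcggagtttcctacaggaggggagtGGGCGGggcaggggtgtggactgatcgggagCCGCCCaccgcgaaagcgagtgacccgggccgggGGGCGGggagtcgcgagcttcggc
Plaur: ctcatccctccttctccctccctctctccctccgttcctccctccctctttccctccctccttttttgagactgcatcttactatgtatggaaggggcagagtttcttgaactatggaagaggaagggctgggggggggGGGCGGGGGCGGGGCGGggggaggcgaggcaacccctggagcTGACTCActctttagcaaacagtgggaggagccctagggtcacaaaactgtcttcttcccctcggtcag
Procr: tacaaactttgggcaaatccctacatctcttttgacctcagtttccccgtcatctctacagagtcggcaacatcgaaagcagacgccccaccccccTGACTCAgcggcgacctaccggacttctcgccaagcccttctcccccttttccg
The F3 window held the AP-1 letters at 2 places, 146 and 135 bases before the RefSeq start, Plaur held them 69 bases and Procr 154 bases before it (the Procr run ends at the GENCODE start, upstream of the RefSeq start), and neither of the 2 windows of Tfpi held them. Of all 32851 windows of this kind, 6.75% held the AP-1 letters. The SP1 letters stood in 32.7% of all windows, at 3 places in F3, at 3 partly overlapping places in Plaur, at 1 place in each Tfpi window and at none in Procr. The letters TATAAA were in 12.4% of all windows and in 1 window of Tfpi, while GCGTGGGCG (an Egr site, 0.536% of windows) and CACGTG (an E-box, 6.02%) were in no member's window. A match of letters is a description of these windows and was not tested for binding.

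The members divided among 6 named cell classes. The highest class was endothelial-like for 4 of the 9 (Plat, Thbd, Vwf and Procr). It was astrocyte-like for F3, pericyte-like for Tfpi, microglia-like for Plau, neutrophil-like for Plaur and monocyte-derived macrophage-like for Thbs1. Of 15261 genes with at least 50 UMIs, 6.56% were highest in endothelial-like cells, 10.8% in astrocyte-like, 5.67% in pericyte-like, 9.68% in microglia-like, 4.74% in neutrophil-like and 2.76% in monocyte-derived macrophage-like cells. The leading class was well separated for F3 and Vwf, but shared for Plat, Thbd and Tfpi, whose 2 highest classes could not be told apart by counting error. The count in endothelial-like cells was 1 without library 3, 2 without library 6 and 3 with called doublets removed. No UMI of any member was seen in the 22 choroid plexus-like cells, a count whose 95% interval reaches 21.6 CPM. Levels are sums of UMIs over the cells of a class, scaled to 1000000 UMIs of that class, with exact 95% Poisson intervals, and ratios carry exact 95% intervals. All intervals and limits cover counting error only, not the spread between animals.

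**Figure D1:**
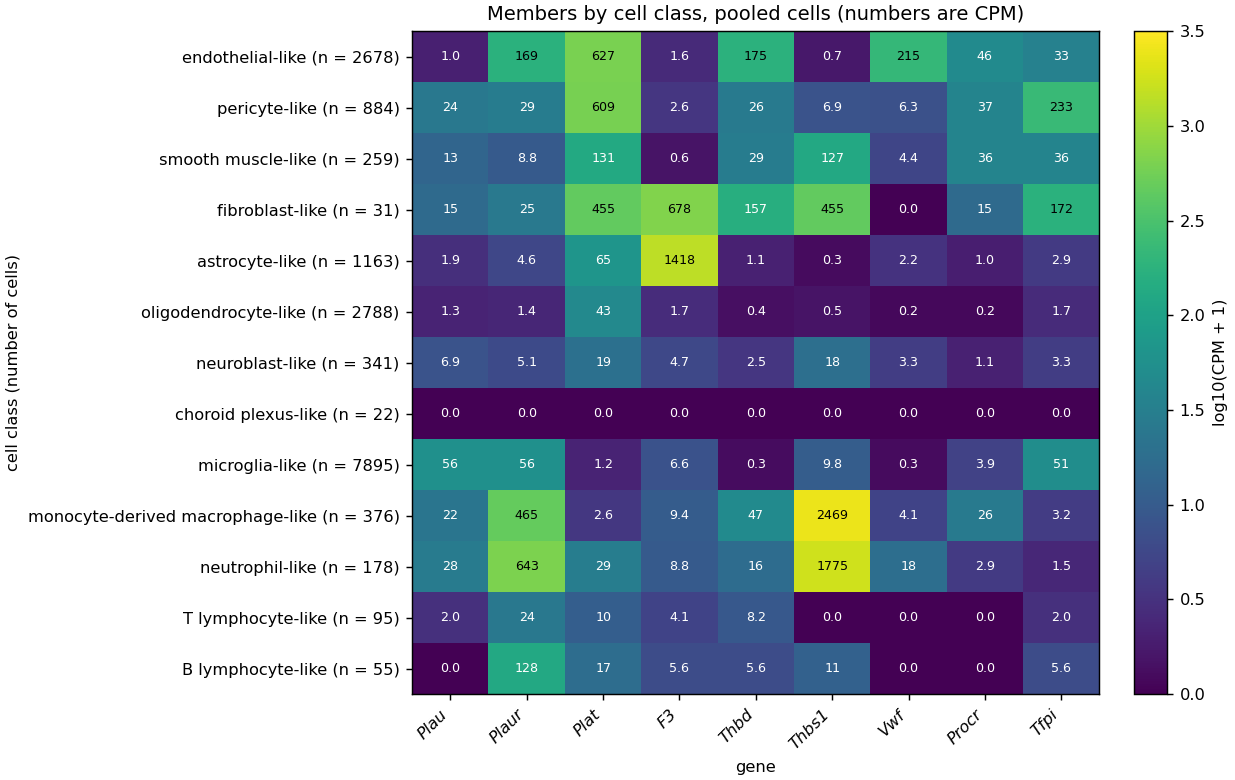
Level of each of the 9 members (columns) in each of the 13 named cell classes (rows, with the number of cells), as CPM over pooled cells. The colour is log10(CPM + 1) and the printed numbers are CPM. F3 peaks in astrocyte-like cells at 1418 CPM, Thbs1 in monocyte-derived macrophage-like cells at 2469 CPM, and Plat is shared by endothelial-like (627 CPM) and pericyte-like cells (609 CPM).

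Among the genes that start or restrain clotting, F3 was an astrocyte gene in these cells. It stood at 1418 CPM in 1163 astrocyte-like cells (interval 1390 to 1445), and 94.7% of its UMIs in all cells kept came from them. The next class was 31 fibroblast-like cells at 678 CPM, 2.09 times lower (1.76 to 2.50). An F3 UMI was found in 94.8% of astrocyte-like cells (93.3% to 96.0%; median depth 5584 UMIs), against 2.65% of microglia-like cells (median 5123 UMIs), which stand in for a class that lacks the gene. With every cell thinned to 1000 UMIs the shares were 67.5% and 0.646%. Endothelial-like cells held 1.6 CPM of F3 and pericyte-like cells 2.6 CPM, both lower than the free F3 RNA of every library given below.

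Tfpi, the inhibitor of the tissue factor complex, was highest in pericyte-like cells. The level there was 233 CPM (217 to 249) against 172 CPM in fibroblast-like cells (34 UMIs), a ratio of 1.35 (0.961 to 1.97) that was 0.84 after thinning, and 33.1 CPM in endothelial-like cells. A Tfpi UMI was seen in 50.8% of pericyte-like cells (47.4% to 54.1%), and in 19.7% after thinning. Microglia-like cells, which had been set as the class lacking it, carried Tfpi at 50.6 CPM and in 22.0% of cells (4.51% after thinning), against 1.26% of the deeper oligodendrocyte-like cells (median 8870 UMIs). Because microglia-like cells were so many, 59.1% of all Tfpi UMIs came from them.

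Thrombomodulin and the endothelial protein C receptor, which together turn thrombin toward activation of protein C, were highest in endothelial-like cells. Thbd was at 175 CPM in endothelial-like cells and in 42.5% of them (40.6% to 44.4%; 15.6% after thinning), against 0.127% of microglia-like cells (0.0380% after thinning). The 31 fibroblast-like cells were at 157 CPM, from 31 UMIs of which 15 were in 1 cell, and the ratio of 1.12 (0.785 to 1.65) did not separate the classes, being 0.94 without library 3 and 1.90 without library 4. Monocyte-derived macrophage-like cells carried Thbd at 47.0 CPM, in 22.6% of cells. Procr was at 46.2 CPM in endothelial-like, 36.6 CPM in pericyte-like and 36.4 CPM in smooth muscle-like cells, and the ratio of the first to the second was 1.26 (1.04 to 1.54). It was 0.83 without library 3 and 1.93 without library 4, and without library 6 monocyte-derived macrophage-like cells were the highest class, at 44.0 CPM. A Procr UMI was in 13.03% of endothelial-like cells (11.8% to 14.4%; 3.44% after thinning) but in 3.17% of pericyte-like cells, so that the pericyte level rested on few cells. Of microglia-like cells, 1.94% had a Procr UMI (0.393% after thinning).

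Vwf, the adhesive protein that endothelial cells store for release, was found almost wholly in endothelial-like cells. They held 94.6% of its UMIs in all cells kept, at 215 CPM, and 35.8% of them had a UMI (34.0% to 37.7%; 14.6% after thinning) against 0.139% of microglia-like cells. The next class, neutrophil-like cells, was at 17.6 CPM from 12 UMIs, 12.2 times lower (6.996 to 23.7). Vwf is also carried by platelets, and the summed level of 6 platelet markers was 12.0 CPM in endothelial-like and 4.40 CPM in neutrophil-like cells, where 4 of the 6 were at 0. Itga2b alone gave 9.40 CPM of the endothelial-like sum, and Gp9, another of the 6, was highest in microglia-like cells at 46.7 CPM. The part of platelets in the Vwf values was not tested.

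Of the plasminogen activators, Plat was highest in endothelial-like and pericyte-like cells and Plau in microglia-like cells, with single clusters given further on. Plat was at 627 CPM in endothelial-like (613 to 642) and 609 CPM in pericyte-like cells (583 to 635), a ratio of 1.03 (0.982 to 1.08) that was 0.97 with called doublets removed and 0.81 without library 3. More pericyte-like than endothelial-like cells had a Plat UMI, 81.2% against 69.7%, and smooth muscle-like cells followed at 131 CPM and 40.2% of cells. Pericyte-like cells held Cldn5 at 2.25%, Pecam1 at 2.92% and Flt1 at 5.998% of the endothelial level, as well as Vwf at 2.92%, and Plat at 97.0%. Oligodendrocyte-like cells had a Plat UMI in 25.4% of cells (3.44% after thinning), at 43 CPM, and microglia-like cells in 0.443% (0.127% after thinning). The 43 CPM lay within the range of free Plat RNA over the libraries, given below.

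Plau was at 55.8 CPM in microglia-like cells (53.6 to 58.0), 2.003 times the 27.8 CPM of neutrophil-like cells (1.28 to 3.33; 19 UMIs). Among the named classes it was highest there in all 6 libraries. The 589 unnamed cells, left out of this ranking, were at 97.1 CPM (88.7 to 106). The share of microglia-like cells with a Plau UMI was 16.9% (16.1% to 17.7%; 4.36% after thinning), against 0.861% of oligodendrocyte-like cells (0.0717% after thinning). With finer clusters (resolution 1.2), 123 cells of the unnamed cluster 15, led by class II genes with Pf4 and Mrc1, became perivascular macrophage-like and took the highest place, with Plau at 129 CPM (105 to 156). These cells, which lie along vessels, also held Thbd at 117 CPM. The microglia-like ratio to neutrophil-like cells was 4.87 without library 4 and 5.78 with called doublets removed. Plaur, the receptor of urokinase, had another order. It was at 643 CPM in 178 neutrophil-like cells, 465 CPM in 376 monocyte-derived macrophage-like cells and 169 CPM in endothelial-like cells, with a ratio of the first to the second of 1.38 (1.24 to 1.54), which was 0.93 without library 6. Within the libraries that count both classes the order was the reverse, at 815 against 923 CPM in library 4 and 138 against 248 CPM in library 6. A Plaur UMI was found in 66.9% of neutrophil-like cells (59.4% to 73.7%; median depth 3126 UMIs; 37.1% after thinning) and in 82.4% of the deeper monocyte-derived macrophage-like cells (median 8848.5 UMIs). In oligodendrocyte-like cells the share was 0.861%, and no UMI was left after thinning.

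Thbs1, the matrix protein thrombospondin-1 that platelets and macrophages release, was highest in the macrophages and neutrophils. Its level was 2469 CPM in monocyte-derived macrophage-like and 1775 CPM in neutrophil-like cells, a ratio of 1.39 (1.31 to 1.48), followed by fibroblast-like cells at 455 CPM and smooth muscle-like cells at 127 CPM. Of the monocyte-derived macrophage-like cells, 85.9% had a UMI (82.0% to 89.3%; 66.2% after thinning), against 0.359% of oligodendrocyte-like cells (0.0359% after thinning). Endothelial-like cells were at 0.7 CPM. Platelet markers summed to 54.3 CPM in the monocyte-derived macrophage-like cells, with Gp1ba and Treml1 at 0. Itga2b, Gp9 and Clec1b were at 0.587, 1.17 and 1.47 CPM there, so that the sum came almost wholly from the remaining marker, Ppbp. The part of platelets in the Thbs1 level was not tested.

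RNA free in the suspension, read from barcodes of at most 50 UMIs, held every member. It ranged over the 6 libraries from 22.7 to 229 CPM for F3, from 33.1 to 87.6 CPM for Plat, from 12.52 to 123 CPM for Plaur and from 3.91 to 145 CPM for Thbs1. For Vwf, Procr, Plau, Thbd and Tfpi it lay between 0.391 and 34.6 CPM.

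Across the numbered libraries, the vascular members moved in different directions within the same cells. Among genes of at least 50 CPM in a class, the highest library was at least 4 times the lowest for Plaur and Plat of 4 members in endothelial-like cells (3.61% of all such genes), for F3 and Plat of 2 in astrocyte-like cells (5.79%), for Plau and Plaur of 3 in microglia-like cells (1.96%) and for 0 of 2 in pericyte-like cells (6.66%). The other members in each class were under 50 CPM and were not counted. With 1 library per group and no map to the groups, a library's animal, hemisphere and time cannot be told apart.

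In endothelial-like cells Plat was 813, 949, 994, 987, 383 and 178 CPM in libraries 1 to 6. Libraries 5 and 6 were thus far below the other 4, with 5.59 times between the highest and the lowest (5.10 to 6.14). They were also the lowest within cluster 2, the largest endothelial-like cluster, where Plat was 849, 967, 1009, 821, 372 and 232 CPM. Pericyte-like cells showed a smaller spread, at 640, 896, 574, 830, 566 and 316 CPM, again lowest in library 6 and 2.84 times apart (2.31 to 3.48).

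Vwf ran the other way in endothelial-like cells, at 132, 117, 147, 154, 257 and 317 CPM in libraries 1 to 6. Libraries 5 and 6, low in Plat, were the highest in Vwf, 2.72 times the lowest library (2.15 to 3.48). Within cluster 2 alone Vwf was 114, 57.9, 91.8, 78.6, 204 and 162 CPM, and libraries 5 and 6 were again above the rest. Thbd was 151, 214, 220, 249, 147 and 109 CPM, lowest in library 6, with 2.28 times between the extremes (1.98 to 2.63).

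Plaur, the urokinase receptor, had the widest range in endothelial-like cells, at 72.0, 346, 127, 504, 19.6 and 120 CPM. Libraries 2 and 4 were high and library 5 low, 25.7 times apart (19.6 to 34.4). These values mix clusters. In library 4 Plaur was 1020 CPM in cluster 9 (173 cells) against 173 CPM in cluster 2 (241 cells). Within cluster 2 alone it was 83.8, 130, 173, 21.5 and 43.1 CPM in libraries 1, 3, 4, 5 and 6. Library 2, with 170 cells in cluster 2, was above all of these, so that it was high within this cluster as well. In microglia-like cells Plaur was 43.7, 177, 29.5, 95.1, 33.4 and 33.9 CPM, so that libraries 2 and 4 were also the highest there, 5.99 times between the extremes (5.20 to 6.88). In cluster 4 of the microglia-like cells, led by Cd83, Il1a and Ccl3, library 2 was at 304 CPM and the other 5 between 47.0 and 65.6 CPM. Free Plaur RNA was also highest in libraries 4 (123 CPM) and 2 (55.8 CPM), and its part in the cell values was not tested.

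Procr was 15.4, 15.4, 34.5, 87.4, 22.4 and 66.5 CPM in endothelial-like cells and 3.6, 0, 2.1, 110, 0 and 97.9 CPM in pericyte-like cells. Libraries 4 and 6 were the highest in both classes, and in pericyte-like cells the other 4 libraries were at or near 0. Within endothelial-like cluster 2 Procr was 10.7, 11.2, 23.1, 31.0, 18.4 and 14.4 CPM, and library 6 was there below libraries 3, 4 and 5. Smooth muscle-like cells, counted in libraries 3 to 6, gave 12.8, 93.4, 17.3 and 56.6 CPM, with the same pair of libraries on top. Tfpi in pericyte-like cells was steadier, at 185, 153, 239, 281, 262 and 199 CPM.

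F3 in astrocyte-like cells was 1641, 1549, 1338, 1686, 1262 and 401 CPM. Library 6, with 90 such cells, was 4.21 times below library 4 (3.70 to 4.79), and no other library came near it. Both astrocyte-like clusters showed this, at 434 CPM in library 6 against 1497 to 1941 CPM in the other counted libraries of cluster 7, and at 269.7 CPM against 883 to 1236 CPM in cluster 10. Free F3 RNA was also lowest in library 6, at 22.7 CPM. Plat in the same cells was 22.2, 5.59, 21.4, 162, 26.6 and 57.9 CPM, with library 4 on top and 29.1 times the lowest (11.2 to 107).

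Plau in microglia-like cells was 32.8, 17.8, 47.9, 81.5, 32.6 and 63.1 CPM, with libraries 4 and 6 highest and 4.59 times between the extremes (3.26 to 6.66). The order changed within a cluster. In cluster 0 alone Plau was 32.8, 24.4, 53.1, 62.4, 25.2 and 25.5 CPM, and library 6 was there among the lowest. Tfpi in microglia-like cells was 32.1, 24.0, 46.7, 58.1, 43.0 and 66.3 CPM, 2.76 times between the extremes (2.03 to 3.83).

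**Figure D2:**
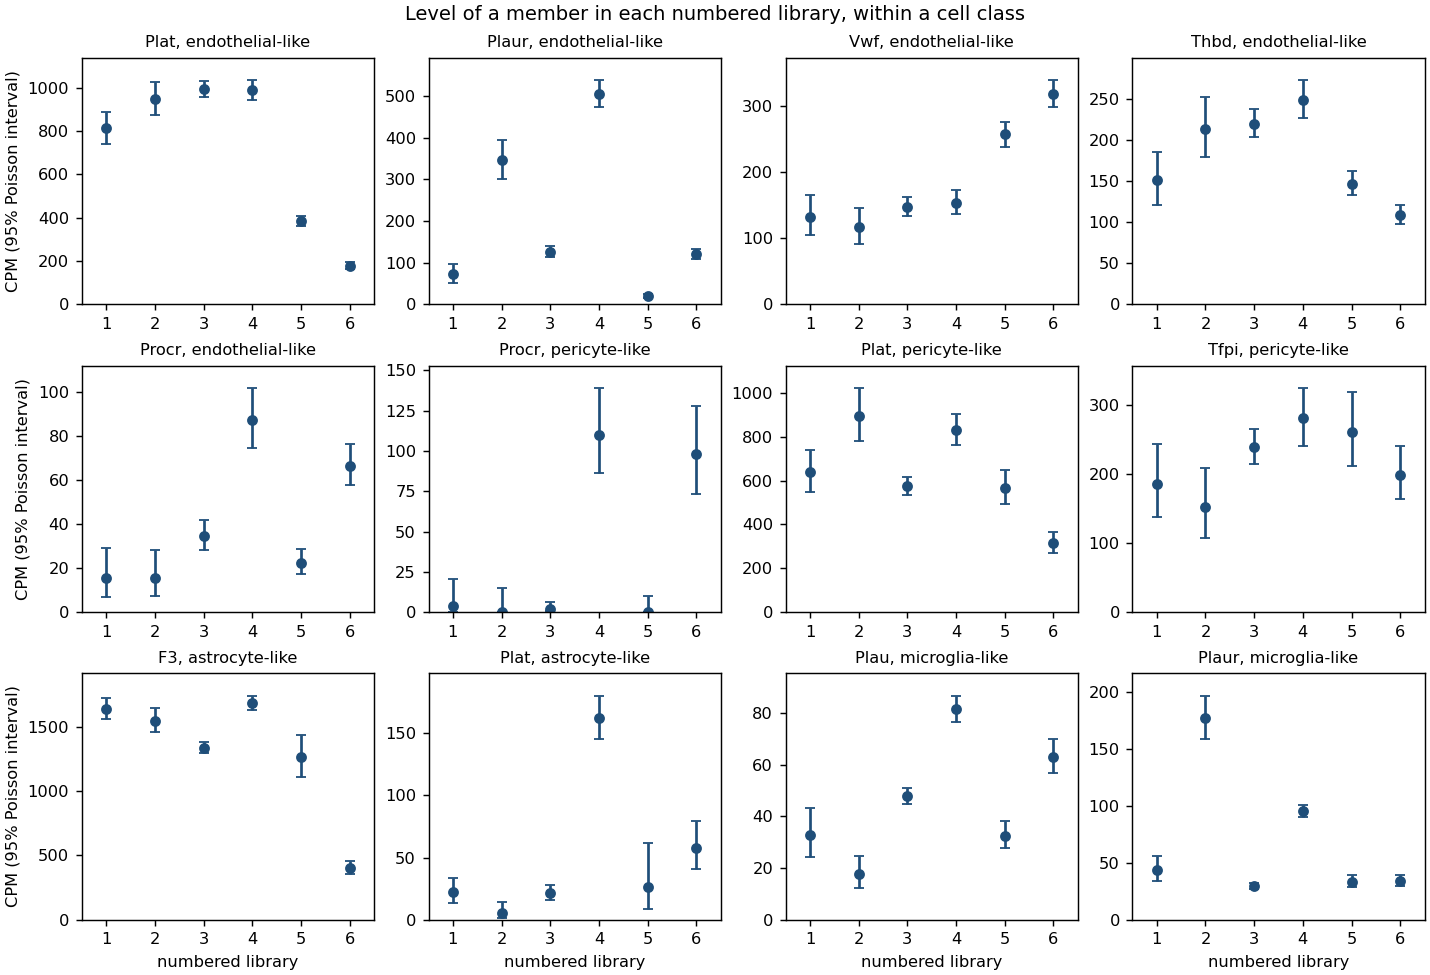
Level of a member in 1 cell class (each panel) against the numbered library, in CPM, with points for pooled cells of the library and bars for exact 95% Poisson intervals. In endothelial-like cells Plat drops to 383 and 178 CPM in libraries 5 and 6 while Vwf is highest there at 257 and 317 CPM, and Procr in pericyte-like cells is seen mainly in libraries 4 and 6.

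The endothelial-like cells fell into 3 clusters, whose members were compared as a description. Cluster 2 (1860 cells) had the highest summed level of 5 capillary markers (4335 CPM), cluster 13 (272 cells) the highest of 6 arterial markers (5442 CPM, against 129 CPM in cluster 2) and cluster 9 (546 cells, led by Ctla2a, Tmem252 and Lcn2) the highest of 5 venous markers (3025 CPM, against 814 CPM in cluster 2). Tmem252, which led cluster 9, was itself among the 5 venous markers. Likewise Mgp and Gkn3, leading genes of cluster 13, were among the arterial markers, and Spock2, a leading gene of cluster 2, among the capillary markers. Mgp was also a leading gene of pericyte-like cluster 6. Cluster 9 held 326 cells of library 6, 173 of library 4 and 24 of library 3. Of 6 members with enough UMIs, 4 were at least 2-fold higher in cluster 9 than in cluster 2 (Plaur, Vwf, Procr and Tfpi; 7.35% of genes) and 0 were as much lower (9.78% of genes). Plau, F3 and Thbs1 had too few UMIs in these clusters.

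Vwf was at 457 CPM in cluster 9 against 132 CPM in cluster 2, a ratio of 3.45 (3.18 to 3.75). The ratio was 10.2 within library 3, 3.24 within library 4 and 2.64 within library 6. Plaur was at 401 against 104 CPM, a ratio of 3.85 (3.51 to 4.22), with 59.5% against 23.4% of cells. Within library 4 that ratio was 5.90 and within library 6 it was 4.06, while in the 24 cells of library 3 it was 1.12 (0.65 to 1.80). Procr was at 107 against 19.9 CPM, a ratio of 5.38 (4.40 to 6.58; 2.46 in library 3, 4.96 in library 4 and 6.75 in library 6), though 68 of its 295 UMIs in cluster 9 were in 1 cell. Tfpi was at 59.5 against 25.2 CPM, a ratio of 2.36 (1.91 to 2.93), but the ratio was 3.52 in library 3, 4.91 in library 4 and 1.21 in library 6 (0.80 to 1.84). Platelet markers summed to 17.8 CPM in cluster 9 and 11.3 CPM in cluster 2, of which Itga2b alone gave 14.5 and 8.96 CPM.

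Plat did not follow the others. The pooled ratio of cluster 9 to cluster 2 was 0.71 (0.67 to 0.76), from 482 and 674 CPM, yet it was 0.66 within library 3 (0.52 to 0.82), 1.49 within library 4 (1.36 to 1.64) and 0.58 within library 6 (0.48 to 0.69). Plat in cluster 9 was 1226 CPM in library 4 and 134 CPM in library 6. Thbd was at 165 and 186 CPM, a pooled ratio of 0.89 (0.80 to 0.99), with 1.80 in library 3 (1.32 to 2.41), 0.97 in library 4 and 0.82 in library 6.

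The arterial-marker cluster 13 differed less. Only Procr of 6 members was at least 2-fold higher than in cluster 2 (6.47% of genes), at 68.2 CPM, a ratio of 3.43 (2.64 to 4.44), and 29.0% of its cells had a UMI against 7.31%. None of the 6 was 2-fold lower (5.32% of genes). Vwf was 1.43 times higher in cluster 13 (1.24 to 1.63), Thbd 0.75 times (0.65 to 0.87) and Plaur 0.65 times (0.52 to 0.80) the level of cluster 2, while the Plat ratio was 0.98 (0.91 to 1.04). Within single counted libraries the Procr ratio was 2.19 to 4.88, but the Vwf ratio was 0.97 in library 5 and 2.302 in library 3, the Plaur ratio 0.31 to 1.12, the Plat ratio 0.68 to 1.25, and the Thbd ratio 0.45 in library 6 and 1.91 in library 1.

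**Figure D3:**
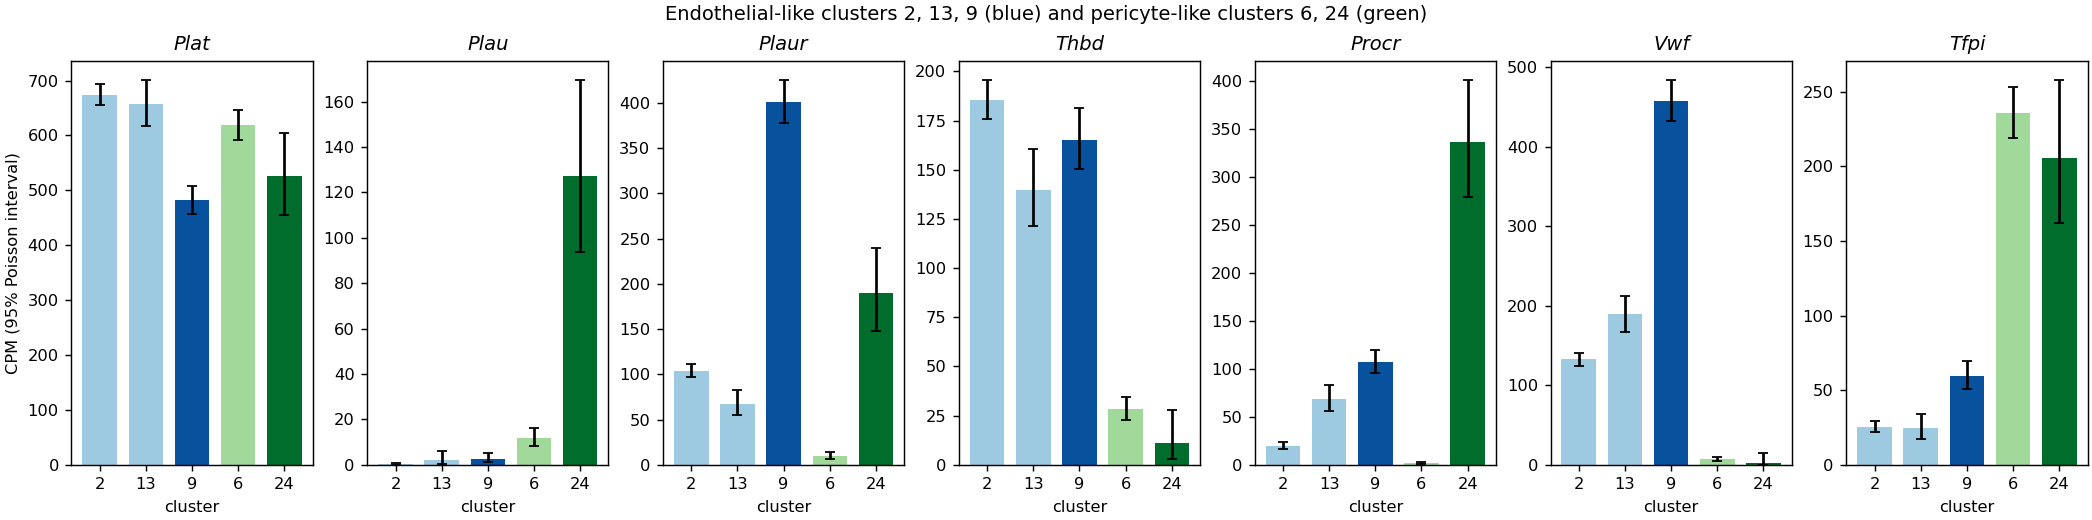
Level of 7 members in CPM (bars, pooled cells, each panel with its own scale from 0) in endothelial-like clusters 2, 13 and 9 (blue) and pericyte-like clusters 6 and 24 (green), with exact 95% Poisson intervals. Vwf and Plaur are highest in cluster 9, at 457 and 401 CPM, and Plau and Procr in cluster 24, at 127 and 336 CPM, while Plat is high in all 5.

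The pericyte-like cells held 2 clusters, and Plau, Plaur and Procr differed most between them. Cluster 24 had 62 cells, 28 of library 4 and 34 of library 6, and was led by Il11, Ccl11, Vtn and Ednrb, whereas cluster 6 had 822 cells from all 6 libraries. Of 8 members with enough UMIs (all but F3), 3 were at least 2-fold higher in cluster 24 (Plau, Plaur and Procr; 8.53% of genes) and 2 at least 2-fold lower (Thbd and Vwf; 25.3% of genes), both of the lower ones with intervals that include no difference.

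Procr was nearly absent from cluster 6. It was at 336 CPM in cluster 24 (124 UMIs, 39 of them in 1 cell) and at 1.28 CPM in cluster 6 (4 UMIs), a ratio of 263 (100.2 to 981), and 38.7% against 0.487% of cells had a UMI. Within cluster 24 it was 423 CPM in library 4 and 264 CPM in library 6, and in cluster 6 no UMI was seen in either library. Plaur was at 190 against 9.90 CPM, a ratio of 19.2 (12.4 to 30.3), with 51.6% against 2.55% of cells. Plau, whose product binds Plaur, was at 127 against 11.8 CPM, a ratio of 10.8 (6.86 to 17.1), with 29.0% against 4.14% of cells. Plau was 203 CPM in library 4 and 64.6 CPM in library 6 of cluster 24, against 12.6 and 0 CPM in cluster 6 of the same libraries.

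Tfpi and Plat differed less between these clusters. Tfpi was at 206 CPM in cluster 24 and 236 CPM in cluster 6, a ratio of 0.87 (0.68 to 1.11), and Plat at 526 and 618 CPM, a pooled ratio of 0.85 (0.73 to 0.99) that was 1.12 in library 4 (0.92 to 1.35) and 0.57 in library 6 (0.39 to 0.81). Within cluster 24 Plat was 899 CPM in library 4 and 214 CPM in library 6, the same direction between these libraries as in the endothelial-like cells.

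Among microglia-like cells, Plaur differed more between clusters than Plau did. Cluster 5 (1304 cells, 693 of library 4 and 568 of library 6, led by Ccl12, Cxcl10 and Spp1) was set against cluster 0 (2521 cells, led by Gpr34, P2ry12 and Tmem119). Of 7 members with enough UMIs, Plaur, Plat and F3 were at least 2-fold higher in cluster 5 (3 of 7; 8.75% of genes) and 0 were as much lower (10.6% of genes), with Thbd and Vwf too low to count. Plaur was at 114 against 32.6 CPM, a ratio of 3.49 (3.12 to 3.91), and Plau at 97.6 against 48.9 CPM, a ratio of 1.99 (1.80 to 2.21). Tfpi was at 72.8 against 47.1 CPM, a ratio of 1.55 (1.39 to 1.73). In cluster 4 (1401 cells, led by Cd83, Il1a and Gpr34) the ratios to cluster 0 were 2.32 for Plaur (2.06 to 2.62), 1.16 for Plau (1.04 to 1.31; 0.65 in library 2 and 1.76 in library 5) and 0.75 for Tfpi (0.65 to 0.86). Plat and F3 passed 2-fold from low levels, 1.80 against 0.52 CPM and 11.4 against 4.24 CPM, which were below the free RNA level of both genes in every library. Of the 17 Plat UMIs in cluster 5, 12 were in 1 cell.

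The unnamed cluster 18, led by Spp1, Lpl and Mmp12, had the highest Plau of all clusters described. Its 191 cells came from libraries 4 (114) and 6 (77) alone. Plau was at 237 CPM there, 4.85 times cluster 0 (4.25 to 5.53), and 40.3% of its cells had a UMI against 17.7%. It was 344 CPM in library 4 and 97.1 CPM in library 6. Plaur was at 316 CPM, a ratio of 9.67 (8.48 to 11.04), and Thbs1 at 94.4 CPM, a ratio of 8.24 (6.52 to 10.4). Of the 142 Thbs1 UMIs, 121 were from library 6, where the level was 186 CPM beside free Thbs1 RNA at 145 CPM, and it was 24.5 CPM in library 4, so that the ratio was 36.6 in library 6 (12.2 to 180.1) and 3.03 in library 4 (1.59 to 5.72). The Tfpi ratio to cluster 0 was 0.81 (0.60 to 1.06). Plau and Plaur, a ligand and its receptor, were thus both higher than in cluster 0.

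The monocyte-derived macrophage-like and neutrophil-like cells were both high in Plaur and Thbs1 and, as pooled cells, differed in the anticoagulant receptors. Thbd was at 47.0 CPM in monocyte-derived macrophage-like and 16.1 CPM in neutrophil-like cells, a ratio of 2.91 (1.59 to 5.96), and Procr at 25.5 and 2.93 CPM, a ratio of 8.72 (2.34 to 73.1) on 87 and 2 UMIs. Plaur in monocyte-derived macrophage-like cells was 923 CPM in library 4 and 248 CPM in library 6, and Thbs1 was 3208 and 2195 CPM. In neutrophil-like cells of libraries 3, 4 and 6 Plaur was 838, 815 and 138 CPM and Thbs1 1576, 2171 and 1348 CPM, so that library 6 was the lowest of the counted libraries for both genes in both classes.

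**Figure D4:**
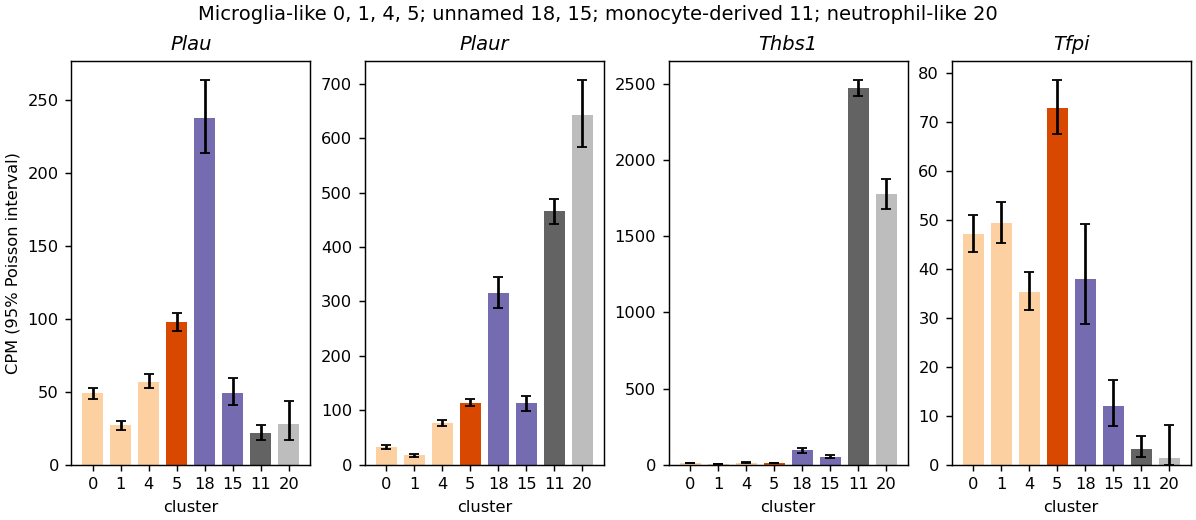
Level of Plau, Plaur, Thbs1 and Tfpi in CPM (bars, pooled cells, each panel with its own scale from 0) in microglia-like clusters 0, 1, 4 and 5, unnamed clusters 18 and 15, monocyte-derived macrophage-like cluster 11 and neutrophil-like cluster 20, with exact 95% Poisson intervals. Plau is highest in cluster 18 at 237 CPM, Plaur in cluster 20 at 643 CPM and Thbs1 in cluster 11 at 2469 CPM.

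The rest of the coagulation and fibrinolysis pathway, a list of 62 genes, was spread over several classes. Of the 62, 39 had at least 50 UMIs and 8 had none, and 18 reached 100 CPM in a class. None of the 39 was highest in endothelial-like cells. The share of all genes was also small there, at 6.56%, so this count is not read as a trait of the list. The largest count, 9, fell to the 31 fibroblast-like cells, and 4 genes were highest in the 22 choroid plexus-like cells. No share of all genes was computed for these small classes. Another 7 were highest in microglia-like (9.68%), 6 in monocyte-derived macrophage-like (2.76%) and 5 in astrocyte-like cells (10.8%), with the others in the remaining classes. Endothelial-like cells still held Anxa2 at 405, Anxa5 at 330 and Cd47 at 286 CPM. Of 16 plasma factors, 3 reached 100 CPM in a class and 4 had no UMI. F5, the cofactor of factor X, was at 105 CPM in choroid plexus-like (62.5 to 167, from 18 UMIs) and 60.1 CPM in neutrophil-like cells. That ratio of 1.75 (0.948 to 3.12) did not separate the classes. F10, which tissue factor and factor VII activate, was at 405 CPM in monocyte-derived macrophage-like and 132 CPM in neutrophil-like cells, a ratio of 3.07 (2.48 to 3.85), and F13a1, which cross-links fibrin, was at 414 CPM there. Serpinb2, the inhibitor PAI-2 of urokinase, was at 116 CPM in the same class.

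The protease inhibitor Serpine2 and the cofactor Pros1 were highest in glia-like classes. Serpine2, protease nexin-1, was at 528 CPM in astrocyte-like and 422 CPM in microglia-like cells. Pros1, the protein S cofactor of activated protein C, was highest in microglia-like cells at 202 CPM. Fibroblast-like cells were next at 147 CPM, and the ratio of 1.38 (0.960 to 2.06) did not separate the classes.

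Anxa2, which with S100a10 binds plasminogen at the cell surface, was at 401 CPM in cluster 24 against 145 CPM in cluster 6, a ratio of 2.77 (2.28 to 3.34). It was at 760.5 CPM in cluster 9 against 292 CPM in cluster 2, a ratio of 2.61 (2.46 to 2.77). In microglia-like cluster 5 it was at 5.81 CPM against 0.967 CPM in cluster 0, a ratio of 6.01 (3.24 to 11.99). Both levels were low beside the 688 CPM of monocyte-derived macrophage-like and 904 CPM of neutrophil-like cells. Free RNA was read for the members only, so its part in these low Anxa2 levels was not tested. S100a10, the partner of Anxa2, was lower in cluster 5, and in cluster 24 it was too rare to compare. S100a10 was at 5.42 CPM in cluster 24 and 5.43 CPM in cluster 6, with too few UMIs for a ratio. In cluster 5 S100a10 was at 3.697 against 16.7 CPM in cluster 0, a ratio of 0.222 (0.151 to 0.318). In cluster 9 S100a10 was higher as well, at 75.1 against 52.7 CPM in cluster 2, a ratio of 1.42. The arterial-marker cluster 13 held more S100a10, at 203 CPM, a ratio to cluster 2 of 3.84 (3.30 to 4.48). Anxa2 in cluster 13 was at 325 CPM, a ratio to cluster 2 of 1.12 (1.01 to 1.23). By counts, 3 of 15 listed genes were at least 2-fold higher and 4 lower in cluster 24 than in cluster 6, beside 8.53% and 25.3% of all genes, with a median ratio of 0.93 against 0.83 over all genes. For cluster 9 over cluster 2 these were 5 and 3 of 20 genes, beside 7.35% and 9.78%, with a median of 1.05 against 0.93. For cluster 13 over cluster 2 they were 3 and 4 of 17 genes beside 6.47% and 5.32% (median 1.16 against 1.00), and for cluster 5 over cluster 0 they were 3 and 7 of 21 genes beside 8.75% and 10.6% (median 0.72 against 0.94).

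**Figure D5:**
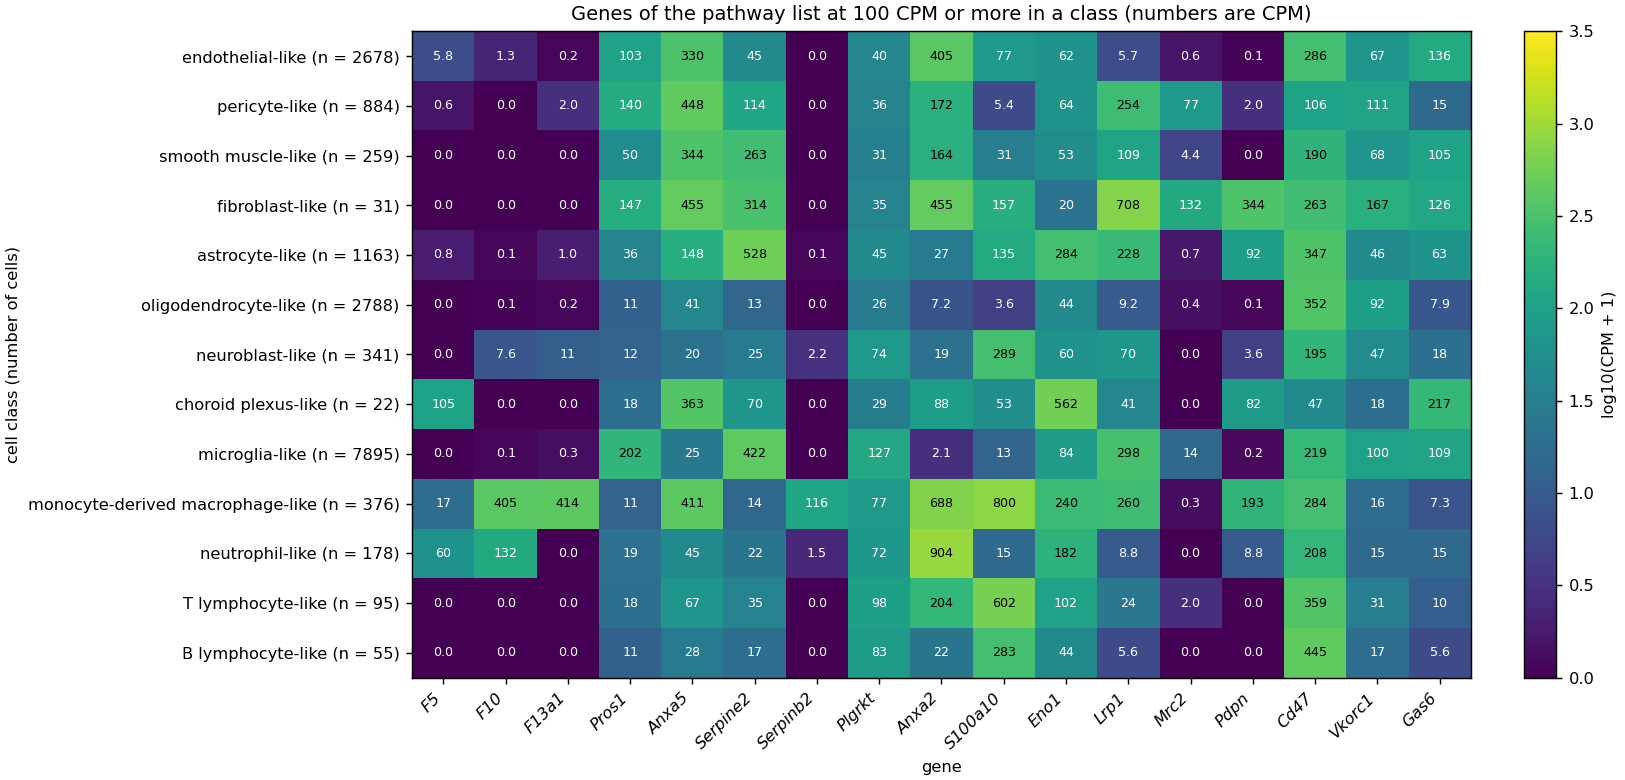
Level of 17 of the 18 other pathway genes that reached 100 CPM in a class (columns) in the 13 named cell classes (rows, with the number of cells), as CPM over pooled cells. The colour is log10(CPM + 1) and the printed numbers are CPM. F10 and F13a1 stand out in monocyte-derived macrophage-like cells at 405 and 414 CPM, and Serpine2 in astrocyte-like cells at 528 CPM.

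The genes most like each member in pattern were sought by Pearson's correlation of log2(CPM + 10) over 47 sums of a class in a library. These sums share libraries and classes, so the values describe likeness only. F3 was nearest to the astrocyte genes Cldn10 (r = 0.985), Gpc5 and Gjb6. Vwf was nearest to Grrp1 (r = 0.973), Podxl and Cyb561, Thbd to Slfn5 (r = 0.941), Nostrin and Ppfibp1, and Tfpi to Rapgef5 (r = 0.937) and Pald1. Plat was nearest to Mxra7 (r = 0.906), Foxf2 and Apcdd1. Thbs1 was nearest to Lgals3 (r = 0.915), Plbd1 and C3, and Plaur to Srgn (r = 0.867), Sdcbp and Mcl1. Plau was nearest to Spint1 (r = 0.831), Clec5a and Rab3il1, and Procr, the least matched, to Cxcl1 (r = 0.792), Fam129b and Tubb6. Among the members themselves the closest pair was Thbd and Vwf (r = 0.797), and Plau and Plaur, a ligand and its receptor, had r = 0.269.

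In the GENCODE vM21 annotation (GRCm38, the build the labels name as mm10) the members lay on separate loci, 4 of them on chromosome 2. These were Thbd at 148404466 to 148408188 on the minus strand, Thbs1 at 118111876 to 118127133 on the plus strand, Procr at 155751117 to 155755471 on the plus strand and Tfpi at 84432855 to 84476775 on the minus strand. Plau lay on chromosome 14 at 20836660 to 20843385, Plaur on chromosome 7 at 24462484 to 24475968, Plat on chromosome 8 at 22757727 to 22782844, F3 on chromosome 3 at 121723537 to 121735048 and Vwf on chromosome 6 at 125546774 to 125686679, all on the plus strand. Thbs1 overlaps Gm29233 on the opposite strand.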

How the data were processed

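Per the labels and the file headers, the authors counted UMIs with Cell Ranger 5.0.1 on mm10 and deposited raw UMI counts of 40769280 barcodes as 1 aggregated matrix, whose aggr step equalised depth between libraries by their methods, so that UMIs of the deeper libraries may have been thinned. The labels name the v3 kit at 1 and 24 h and v3.1 at 12 h, and a difference in kit or sequencer between libraries cannot be told apart from time. No library number could be tied to a sample, so libraries were used as numbered, no sample has a group in any comparison, and no test over samples was run.

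Cells were called by depth, at 0.1 of the UMIs at percentile 99 among the top 3000 barcodes of each library, which gave 18585. Those under 200 features or over 10% mitochondrial UMIs were dropped, which left 17354. The 2 filters of the study alone left 19864 barcodes, fewer than the cells the study counts. Counts were log-normalised at a scale of 10000. The 2000 most variable genes, without the 9 members and 62 pathway genes, gave 30 principal components, 20 neighbours and Leiden clusters (resolution 0.8, seed 1; leidenalg 0.10.2, scikit-learn 1.9.0, Python 3.11.15). Clusters were named from marker lists of 18 classes, and stayed unnamed where over 50% of cells were called doublets or too few markers were raised. A further rule was added after the data were seen, namely that a cluster led by at least 3 class II genes without its own markers stays unnamed. Doublets (1.96% of cells) were called in each library by the procedure of Scrublet and kept unless stated.

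Sums of counts over cells were scaled to a total of 1000000 (CPM). Intervals are 95%, Poisson for levels, conditional binomial for ratios and Clopper-Pearson for shares of cells. For shares, cells were also thinned to 1000 UMIs. Libraries were described with at least 20 cells of a class, and clusters compared over genes with at least 20 UMIs in both together. Scripts were tested on simulated data. All 9 members were named, of the pathway list those at 100 CPM or more in a class, and for each member the 3 genes most like it among 8332 with at least 50 CPM in a class. Of these, 1 pathway gene and 1 gene like Tfpi are counted but not reported here. Members, gene lists and comparisons were chosen with earlier results of these data known. Alternatives were the 2 filters alone, doublets removed, resolutions 0.4 and 1.2, the mean of the cells' own CPM, thinning, CPM without mitochondrial, ribosomal and hemoglobin genes, and leaving out each library.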

Additional observations from a re-analysis of the deposited data

How the results depend on the processing

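The compared values were the ratio of each member's highest class to the next class and the count of members highest in endothelial-like cells. The 2 classes of a ratio were those of the main setting and were kept in every alternative, also where another class became the highest. Over all alternatives, 102 values stayed within the counting interval or the allowed range of the count, 25 moved by more and 2 reversed. The ratio also fell below 1 in some alternatives for Plat, Thbd and Tfpi, whose main intervals include 1. Those values were counted among the ones that stayed or moved, not as reversed. With called doublets removed the ratio was 5.78 for Plau and 0.967 for Plat. When CPM was averaged over single cells it was 1.66 for Procr. With cells thinned to 1000 UMIs it was 4.31 for Plau, 1.96 for Plaur, 1.51 for F3, 1.25 for Thbs1 and 0.838 for Tfpi, and Vwf gave no value. Without mitochondrial, ribosomal and hemoglobin genes it was 1.17 for Plaur, 1.101 for Plat and 1.64 for Thbs1. With the 2 filters of the study alone and at resolution 1.2, the highest class of Plau was perivascular macrophage-like, at 147 and 129 CPM. Leaving out each library gave ratios from 0.806 to 1.18 for Plat, 0.833 to 1.93 for Procr, 0.934 to 1.78 for Plaur, 1.74 to 4.87 for Plau, 0.936 to 1.90 for Thbd, 1.36 to 1.60 for Thbs1, 1.61 to 2.63 for F3, 1.11 to 1.43 for Tfpi and 10.95 to 14.5 for Vwf. Without library 3 the Procr ratio reversed to 0.833 and without library 6 the Plaur ratio reversed to 0.934. The cause of these shifts was not tested. The count of members highest in endothelial-like cells was from 1 (without library 3) to 4 over the libraries left out. No paired analysis was possible because no library number is tied to a sample and each group has 1 library. Depth limits the choroid plexus-like, B lymphocyte-like and fibroblast-like classes most, where 3 counts are 17.6, 16.7 and 15.2 CPM.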
